A study of Haematococcus lacustris with 7 samples.

Results

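The abiotic stress set of *Haematococcus pluvialis* comprised the annotated transcript sequences whose Gene Ontology (GO) terms name a response to cadmium ion, heat, cold, salt stress, osmotic stress, water deprivation, desiccation, starvation or wounding. A phrase of this kind was found in the term names of 223 sequences. Of these, 5 also carried a term for oxidative stress and were left out, which gave 218 members among 6812 annotated sequences (3.2%). The members came from 203 of the 6164 Trinity components that held an annotated sequence, where a component is a group of assembled transcripts that share sequence. The members were chosen by the wording of their terms, and 0 members came from the phrase for desiccation.

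The alga is a unicellular freshwater green alga, and its label in the archive is *Haematococcus lacustris*. Cells of one strain were treated with jasmonic acid (JA) at 25 mg/L for 1, 6 or 24 h, with salicylic acid (SA) at 25 mg/L for 1, 6 or 24 h, or left untreated as the control (N), and mRNA purified with oligo(dT) beads from the total RNA of each of the 7 conditions was sequenced as 1 library. The data used here are one annotation table of the transcripts assembled from these libraries, with 39529 lines that each pair a sequence with a GO term. The table has 0 columns with values per sample, so depth, expression and the comparisons of JA and SA with the control are not analysed here, and no difference in this text is a difference between treatments.

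In plants and algae, heat exposes hydrophobic parts of proteins, and chaperones bind these parts so that the proteins can refold, while the proteasome degrades those that cannot. Cadmium is a toxic metal that binds to thiols and displaces metal cofactors, and cells meet it by chelation, by export into the vacuole and by replacement of damaged proteins. Salt, cold and drought withdraw water from the cell and share part of their signalling through abscisic acid and protein kinases. Under salt stress *H. pluvialis* is known to form cysts that accumulate the carotenoid astaxanthin. GO terms reached the sequences through their similarity to known proteins, so a term describes what is known of the matched protein, and the terms that name pollen, leaves, roots or yeast budding came along with it.

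Cadmium was the most frequent stress term. The term response to cadmium ion was listed for 103 members, 47.2% of the set, and response to heat or cellular response to heat for 57 members (26.1%). Salt stress followed with 30 members (13.8%), cold with 20 (9.17%), osmotic stress with 16 (7.34%), starvation with 12 (5.5%), water deprivation with 9 (4.13%) and wounding with 7 (3.21%). These 8 classes rested on 16 distinct stress terms, which made up 255 of the 2085 pairs of member and term. Counting Trinity components, the order from cadmium (94 components) to wounding (6 components) was the same. Many members carried exactly the same terms, and counted by distinct sets of terms the cadmium class held 56, the heat class 26, the salt class 22, the cold class 16 and the osmotic class 5. By this count the osmotic class was smaller than the starvation class, which held 9 distinct sets.

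**Figure D1:**
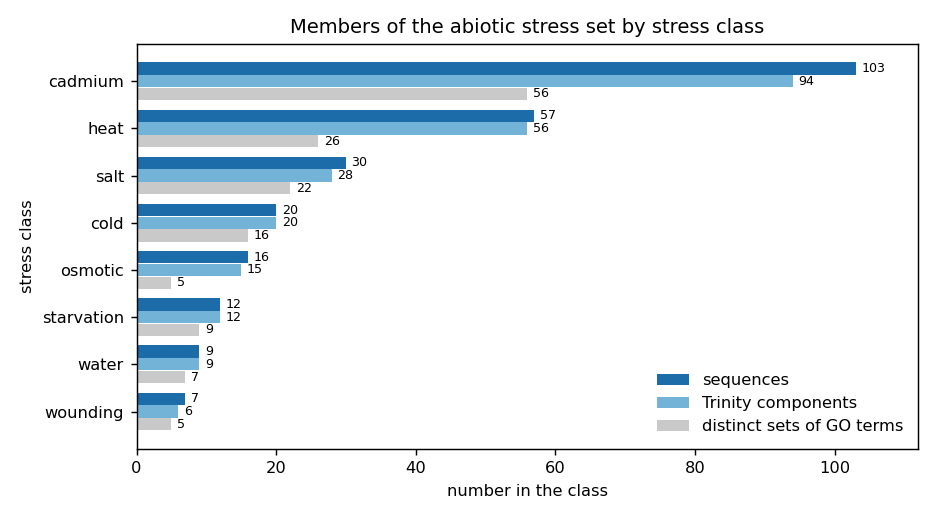
Number of members of the abiotic stress set in each of 8 stress classes, counted as sequences, as Trinity components and as distinct sets of GO terms (horizontal axis, number in the class). The 103 cadmium sequences fall to 56 distinct term sets and the 16 osmotic sequences to 5, while the 12 starvation sequences keep 9.

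Most members belonged to a single class. Of the 218 members, 188 (86.2%) were in 1 class, 25 were in 2, 4 were in 3 and 1 was in 4 classes. Cadmium shared 7 members with heat, 7 with cold and 6 with salt. The 7 shared with cold were 35% of the 20 cold members and 6.8% of the 103 cadmium members. Salt and water deprivation shared 4 members, which were 44.4% of the water deprivation class and 13.3% of the salt class. The osmotic and starvation classes shared 0 members with any other class, so the sequences with the term response to osmotic stress were not those with the term response to salt stress. A pair of kinases of one component, comp58642_c0, was divided in this way. Its sequence comp58642_c0_seq2_14 carried response to salt stress and a nuclear location, and comp58642_c0_seq4_13 carried response to osmotic stress and the abscisic acid mediated signaling pathway.

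**Figure D2:**
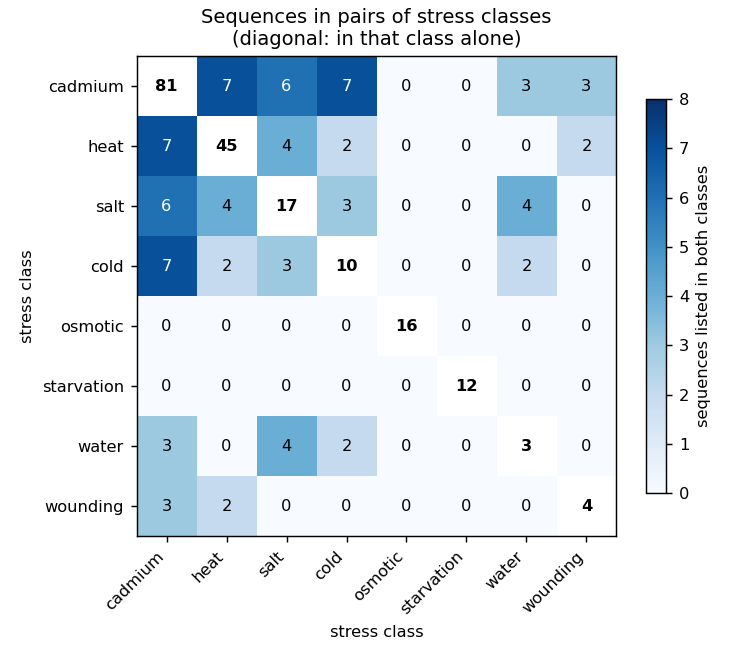
Matrix of the 8 stress classes with the number of sequences listed in both classes of a pair (blue scale), and on the diagonal, in bold, the sequences in that class alone. Cadmium pairs with heat and with cold in 7 sequences each, whereas the osmotic and starvation rows hold 0 in every pair.

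The sequence in 4 classes, comp426862_c0_seq1_3, carried cadmium, salt, cold and water deprivation terms among 16 terms. Its functions were ATP binding and unfolded protein binding, it was listed in the endoplasmic reticulum lumen and its processes included protein folding and protein secretion, the work of a chaperone of the secretory pathway. Sequences comp18018_c0_seq1_1 and comp63565_c0_seq1_19 carried cadmium, heat and wounding terms together with peptidyl-prolyl cis-trans isomerase activity, which turns proline bonds during folding, and calmodulin binding. Sequence comp61535_c1_seq1_16 carried salt, cold and water deprivation terms with DNA, RNA and ATP-dependent helicase functions. Sequence comp63801_c0_seq1_15, a protein serine/threonine kinase in the nucleus, carried heat, salt and cold terms and positive regulation of translation. Folding, unwinding of nucleic acids and phosphorylation were therefore the functions of the 5 members in 3 or more classes (2.29% of the set).

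Chaperone terms were found in 37 members (17%), against 230 of the 6594 other annotated sequences (3.49%), and 33 of the 37 were in the heat class, where they made up 57.9% of its 57 members. The leading term was protein folding (34 members), followed by unfolded protein binding (29) and heat shock protein binding (24). A single set of 8 terms was shared by 18 heat members from 18 components, for example comp59423_c0_seq1_42 and comp64366_c1_seq1_17. It held cytoplasm, ATP binding, heat shock protein binding, metal ion binding, unfolded protein binding, DNA replication, protein folding and response to heat. All 24 members with heat shock protein binding were in the heat class through the rule. They all carried ATP binding and metal ion binding, whereas 0 of the 28 other sequences with heat shock protein binding carried either of these terms. The other sequences carried response to unfolded protein in 8 of 28 cases, and the members in 0 of 24. Protein folding was common to both, with 24 of 24 members and 16 of 28 other sequences. Unfolded protein binding was listed for 29 members (13.3%) and 144 other sequences (2.18%). Most of its sequences thus lay outside the set, but its share was higher among the members.

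The other heat members had several kinds of function. The 3 sequences comp564022_c0_seq1_12, comp65314_c0_seq3_74 and comp65314_c0_seq4_75 carried metalloendopeptidase activity with response to high light intensity and the breakdown of light-harvesting complex II of photosystem II, a process that reduces the antenna in strong light. A further 3 sequences, of components comp59700_c0, comp65523_c1 and comp65523_c2, carried ATP-dependent DNA helicase activity with an iron-sulfur cluster, nucleotide-excision repair and response to UV. The transcription factor comp55040_c0_seq5_17 was listed in the nucleus and the cytoplasm, and comp7842_c0_seq1_1 carried protein tag and protein sumoylation, the attachment of a small modifier to proteins. With its light and UV terms the heat class held 8 of the 10 members in the light list, which covered 4.59% of the set and 0.5% of the other sequences.

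Among the 103 cadmium members, 30 (29.1%) carried terms of the protein synthesis list, against 14.8% of the sequences outside the set. Redox terms were carried by 18 (17.5%), against 10.4%, and proteolysis terms by 17 (16.5%), against 7.2%. Carbon metabolism terms were carried by 14 (13.6%), against 4.61%. Transport terms, in 13 (12.6%), had a lower share than outside the set (14.6%). A member could carry terms of several of these lists. In the first of these lists, 12 cadmium members carried the location term cytosolic ribosome. Aminoacyl-tRNA ligases, which charge tRNA with amino acids, accounted for 16 of the 103 cadmium members. All ligases in the set were in the cadmium class. They were those for glycine (5 of 7 sequences in the table), serine (4 of 7), alanine (4 of 11), asparagine and aspartate (2 sequences that carried both terms) and methionine (1 of 8), and 15 other ligase terms had 0 members. The 5 glycine-tRNA ligases of the set were listed in the mitochondrion in 5 of 5 cases, and the 2 others in the cytoplasm. The 4 alanine-tRNA ligases of the set were listed in both chloroplast and mitochondrion, whereas 0 of the 7 others were in the chloroplast and 5 of 7 were in the cytoplasm. For serine-tRNA ligase the cytoplasm was listed for 4 of 4 members and 1 of 3 other sequences, and the cytosol for the other 2. The members were thus annotated as organellar for glycine and alanine and as cytoplasmic for serine. The 5 glycine ligases (4 components), the 4 alanine ligases (3 components) and the 4 serine ligases (4 components) each shared a single set of terms. Each of these counts of members therefore repeats a single annotation.

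Copper ion binding was carried by 22 members (10.1%) and by 36 other sequences (0.546%), and 18 of the 22 were in the cadmium class. Its carriers included 4 succinate-CoA ligases of the tricarboxylic acid cycle, among them comp34951_c0_seq1_16, the 4 aspartate aminotransferases of component comp63812_c0, 4 dihydrolipoyl dehydrogenases with cobalt and zinc ion binding and 3 formate-tetrahydrofolate ligases of one-carbon metabolism. The set held 6 of the table's 12 aspartate aminotransferases, which pass amino groups between aspartate and glutamate, and copper ion binding was listed for 4 of these 6 and for 0 of the other 6. In the salt class copper ion binding was listed for 4 members, among them superoxide dismutase comp487196_c0_seq1_15, which removes superoxide, and aconitate hydratase comp35663_c0_seq1_6.

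Proteasome subunits were a further part of the cadmium class. Threonine-type endopeptidase activity, a function term of the proteasome core, was listed for 8 members and 62 other sequences. All 8 were cadmium members, of which 2 were also in the cold class and 1 in the salt class. The alpha-subunit complex of the core was listed for 5 of the 8 members and 28 of the 62 others. Cytoplasm was listed for 0 of these 8 members, against 52 of the 62 others, and cytosolic ribosome for 4 of 8 members, against 0 of 62 others. The nucleus was listed for 8 of 8 members and 61 of 62 others. In all, 17 members carried a proteasome term, 11 in the cadmium class, 7 in the salt class and 6 in the heat class. They included 3 proteasome ATPases with cadmium and heat terms (comp11730_c0_seq1_5, comp61582_c0_seq2_12 and comp765129_c0_seq1_4) and the 3 sequences with peptide receptor activity (comp1029749_c0_seq1_1, comp62010_c0_seq3_25 and comp62010_c1_seq1_3). These last carried heat and salt terms and 22 terms each, with responses to auxin, cytokinin and abscisic acid, and they were the only sequences of the table with that function term.

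Terms of metal transport, cysteine and glutathione were also found in a few of the 103 cadmium members. ATPases coupled to transmembrane movement with iron ion transport and response to lead ion were found as comp58891_c0_seq2_51, comp58891_c0_seq3_52 and comp63888_c0_seq1_16, in the chloroplast envelope and the mitochondrial inner membrane, and these 3 held all the table's response to lead ion. Sequence comp1372923_c0_seq1_5 carried glutathione S-conjugate-exporting ATPase activity at the vacuolar membrane, together with bilirubin transmembrane transporter activity. Cysteine synthase activity, which makes the thiol amino acid cysteine, was carried by comp1400609_c0_seq1_6, and 8 sequences outside the set carried the same function terms. S-formylglutathione hydrolase activity was carried by comp57076_c0_seq1_18. In isoprenoid metabolism, from which carotenoids derive, comp61994_c0_seq1_31 carried 1-deoxy-D-xylulose-5-phosphate reductoisomerase activity in the chloroplast stroma.

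**Figure D3:**
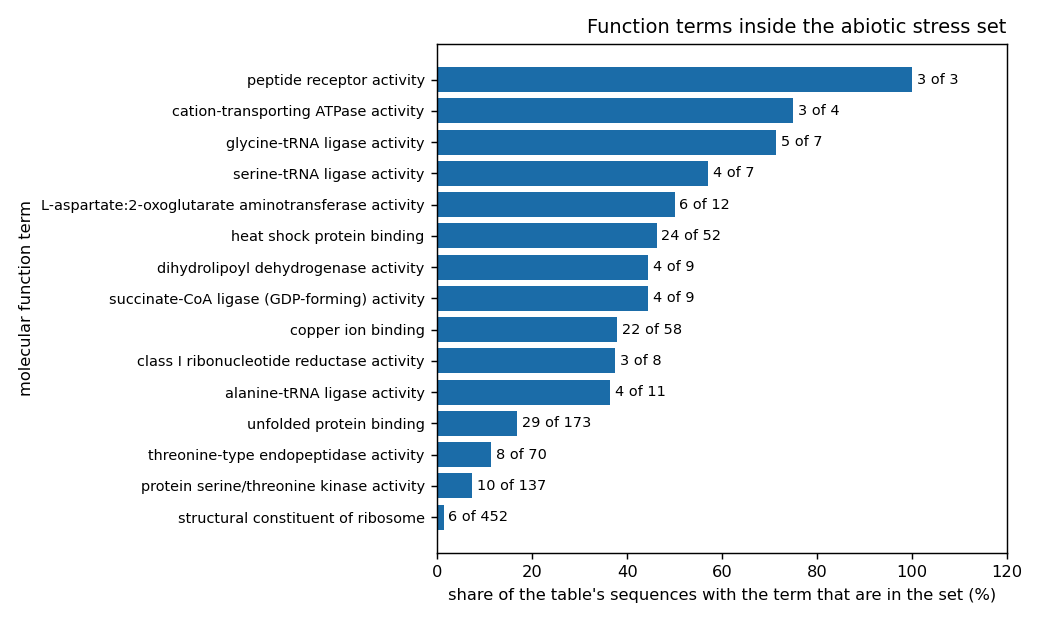
Share (horizontal axis, %) of the table's sequences with each of 15 molecular function terms that belong to the abiotic stress set, with the counts beside the bars. Peptide receptor activity (3 of 3) and glycine-tRNA ligase activity (5 of 7) lie mostly inside the set. Structural constituent of ribosome (6 of 452, or 1.33%) lies almost wholly outside it, where the set makes up 3.2% of the table.

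Of the 20 cold members, 13 carried plastid terms, 11 cell wall or apoplast terms and 10 nucleus terms, so that several locations were often listed for one sequence. Plastid terms were found in 13 of the 20 cold members (65%), in 31 of the 103 cadmium members (30.1%) and in 3 of the 57 heat members. Stromules are thin tubules that extend from plastids, and all 9 sequences of the table with the term stromule were cold members, 4 of them also with the cadmium term. Among them were serine hydroxymethyltransferases comp1473402_c0_seq1_2 and comp591479_c0_seq1_3, enzymes of photorespiration with 19 terms each, a thiamine synthesis protein (comp56719_c0_seq1_23), a chaperone with systemic acquired resistance (comp64354_c0_seq1_37) and comp64562_c0_seq8_4, with circadian rhythm and plastoglobule. Apoplast, the space outside the plasma membrane, was listed for 24 members and 11 other sequences, and 11 of the 24 were in the cold class and 18 in the cadmium class. The stromule members also included aspartate aminotransferases comp1934869_c0_seq1_1 and comp59216_c0_seq3_13, peroxiredoxin comp56850_c0_seq1_6, which reduces peroxides, and phosphoglucomutase comp61909_c0_seq3_12, which interconverts glucose phosphates. Without a plastid term, the cold class held GTPase comp3620_c0_seq1_2 with hyperosmotic response and actin phosphorylation.

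Nuclear locations were frequent in the salt class. A term of the nucleus list was found in 18 of 30 salt members (60%), and hormone terms in 8 of 30 (26.7%). Protein serine/threonine kinases numbered 4 and proteasome carriers 7. Sequences comp1309773_c0_seq1_6, comp338393_c0_seq1_10 and comp53925_c0_seq1_21 combined ubiquitin thiolesterase and metallopeptidase activities, which remove ubiquitin from proteins. Sequence comp54599_c1_seq1_9 carried 1-pyrroline-5-carboxylate dehydrogenase activity, the breakdown of proline, which many plants gather as an osmolyte. The chaperones comp63284_c0_seq1_11 and comp63284_c3_seq2_36 carried salt and water deprivation terms with heat acclimation, and they held 2 of the 5 sequences with that term in the table. The remaining water deprivation members included 2 phosphorylases shared with cadmium (comp62138_c0_seq1_41 and comp64099_c3_seq1_82), which release sugar phosphate from storage glucan, the electron carrier comp57067_c0_seq1_6 of photosystem I and the protein farnesyltransferase comp63853_c0_seq45_35.

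The osmotic class consisted of a few repeated annotations. One set of 16 terms with structural molecule activity and clathrin coat of coated pit was shared by 7 members from 7 components, for example comp46484_c0_seq1_21. Clathrin coats vesicles that bud inward from the plasma membrane, and the terms of these 7 also held pinocytosis and sorocarp development, which belongs to slime moulds. A further 5 osmotic members were protein serine/threonine kinases, 4 of them with abscisic acid signalling, and 3 members were translation initiation factors (comp1119010_c0_seq1_2, comp4465_c0_seq1_5 and comp452694_c0_seq1_9). The last, comp48327_c0_seq1_6, carried snoRNA binding in the nucleolus.

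The starvation class was varied, with 9 distinct term sets among 12 members. Phosphate starvation was listed for 4 members. Of these, 3 were cation-transporting ATPases (comp65784_c0_seq1_14, comp65784_c1_seq5_44 and comp742364_c0_seq1_3), out of 4 sequences with that function in the table, and comp804313_c0_seq1_3 was a UDPsulfoquinovose synthase of the chloroplast, which makes a sulfolipid that plants use in place of phospholipid. Nitrogen starvation terms were listed for comp1114972_c0_seq1_5, of the TORC1 complex, and for kinase comp806607_c0_seq1_4, both with the TOR signaling pathway, which couples growth to nutrients. The transcription factors comp53759_c0_seq1_10 and comp61567_c3_seq1_21 carried regulation of transcription in response to iron ion starvation. Sequence comp752807_c0_seq1_4, with carbamoyl-phosphate synthase activity and 23 terms, and sucrose-cleaving comp1019033_c0_seq1_2, with 16 terms, carried terms of animal physiology such as response to glucocorticoid stimulus.

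Hormone terms joined some stress members to the treatments of the study by name. Abscisic acid was named in the terms of 14 members (6.42%) and of 8 other sequences (0.121%), and JA or SA in those of 6 members (2.75%) and 9 other sequences (0.136%). Transcription regulators comp1041567_c0_seq1_2, comp367827_c0_seq1_9 and comp55036_c0_seq1_7 carried cadmium and salt terms with responses to JA, SA, ethylene, auxin, gibberellin and abscisic acid, and with flowering by day length. The MAP kinase comp53936_c0_seq1_7 was in the cold class and carried resistance pathways mediated by SA and by JA. In JA synthesis, comp692673_c0_seq1_1 carried 12-oxophytodienoate reductase activity with cadmium and wounding terms, and comp59173_c0_seq1_40 acetyl-CoA C-acyltransferase activity with the wounding term. Both enzymes act in the oxylipin route of plants, from 12-oxophytodienoic acid through beta-oxidation to JA. The other wounding members were 2 tyrosine decarboxylases of component comp63748_c0, the 2 isomerases described above and hydrolase comp30025_c0_seq1_4.

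**Figure D4:**
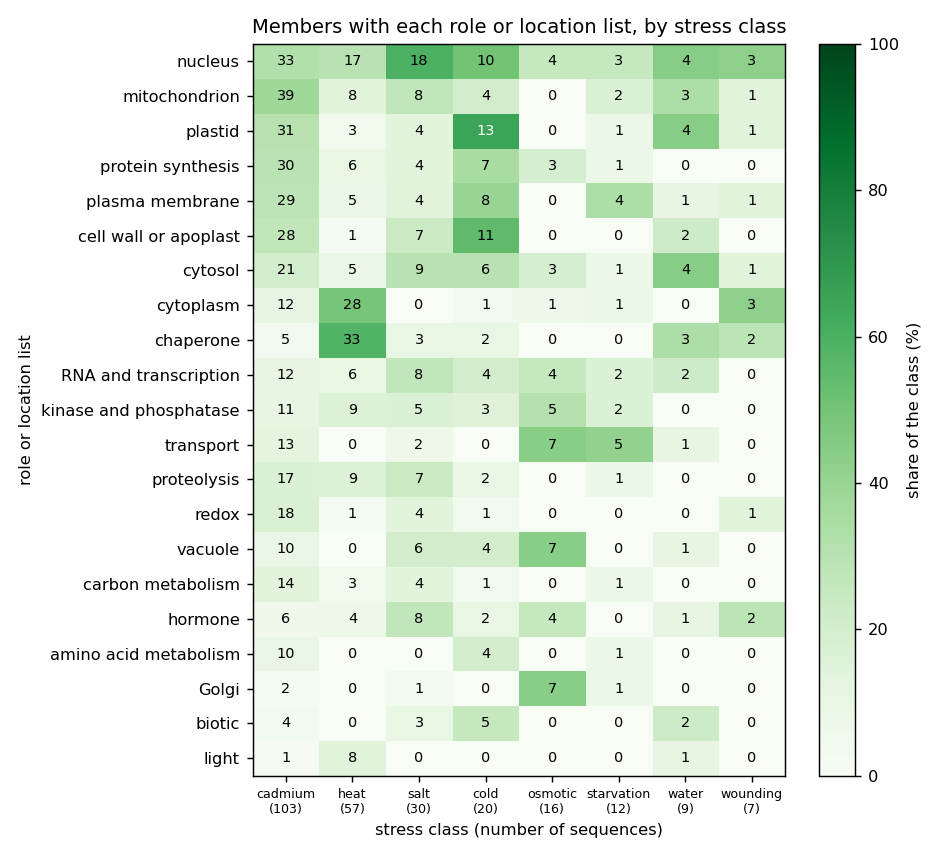
Role and location lists (rows) against stress classes (columns, with the number of sequences in each). Colour is the share of the class with a term of the list (%), and the number in each cell is the count of members. Chaperone terms stand in 33 of 57 heat members, plastid terms in 13 of 20 cold members and nucleus terms in 18 of 30 salt members.

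Most location lists were found in a larger share of the members than of the other sequences. The nucleus list was found in 67 members (30.7%), against 17.3% of the other sequences, the mitochondrion list in 56 (25.7%), against 10.9%, and the plastid list in 47 (21.6%), against 11%. Plasma membrane terms were found in 42 members (19.3%), against 6.45% of the others, and cell wall or apoplast terms in 39 (17.9%), against 1.21%. Vacuole terms were found in 22 members (10.1%), against 1.71%. Of these 22, 7 were the clathrin sequences of the osmotic class, through the process term vacuole organization and not a location. Cytoplasm terms, in 38 members (17.4%), were at about the same share as in the other sequences (19.3%). Terms with the word extracellular were found in 0 members (95% Wilson interval 0 to 1.73%), against 1.36% of the others, within that interval. Apoplast, also outside the plasma membrane, was counted in the cell wall or apoplast list. It was listed for 24 members (11%), against 0.167% of the other sequences. Of the roles, protein synthesis was found in 44 members (20.2%), against 14.8%, but without the location term cytosolic ribosome, left out after the data had been seen, in 31 members (14.2%), against 14.8%. Proteolysis was found in 27 members (12.4%), against 7.2%, and redox terms in 24 (11%), against 10.4%. Of these 24, 18 were cadmium members, and without the cadmium phrase the redox share of the set was 5.11%. Lipid terms were found in 4 members (1.83%), against 4.67% of the others. The protein synthesis members included the 16 ligases and the sequences with the location term cytosolic ribosome (13 of the table's 18), and structural constituent of ribosome was listed for 6 members of 452 sequences. Cytosolic ribosome and structural constituent of ribosome were listed together for 0 of the 13 members.

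**Figure D5:**
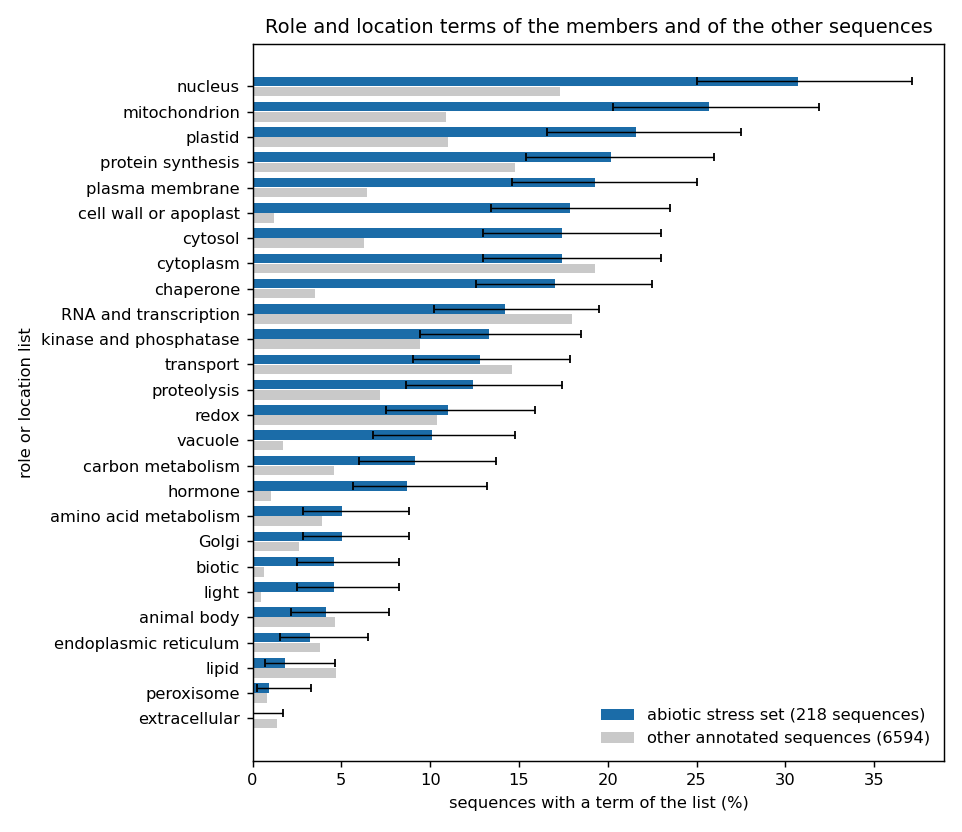
Share of sequences (horizontal axis, %) with a term of each of 26 role and location lists, in the abiotic stress set (blue, upper bar of each pair, with 95% Wilson intervals that cover counting error only) and in the other annotated sequences (grey, lower bar). Nucleus, mitochondrion and plastid terms are the most frequent in the set (30.7%, 25.7% and 21.6%), and cytoplasm and redox shares lie close together in both groups, with 18 of the 24 redox members in the cadmium class.

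The members carried more terms in all, which could have affected the shares above. The median was 8 terms per member (quartiles 7 and 11, range 2 to 30) and 5 per other sequence (quartiles 4 and 7, range 1 to 48). Without the stress terms themselves the median of the members was 7. A cellular component term was listed for 93.6% of the members and 83.3% of the other sequences, and a biological process term for all members, as their selection requires, and for 90.6% of the others. Whether this richer annotation had a part in the shares was not tested. The members with the most terms were a phosphatase with the heat term (comp1332389_c0_seq1_2, 30 terms, many of them yeast processes), comp752807_c0_seq1_4 with 23, and the 3 sequences with peptide receptor activity.

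Many members could not be told from the rest of the table by function alone. For 124 of the 218 members (56.9%) at least 1 sequence outside the set carried exactly the same molecular function terms. The share was 93.8% in the osmotic class, 70% in the cold class, 67% in the cadmium class, 40.4% in the heat class and 8.33% in the starvation class. The 8 members whose only function was threonine-type endopeptidase activity had 57 such counterparts, and the 8 kinases with ATP binding and protein serine/threonine kinase activity had 50. The 24 heat members with heat shock protein binding had 0. Component comp63694_c0 was the only one to hold a member beside another annotated sequence, with heat member comp63694_c0_seq3_15 and a serine-tRNA ligase outside the set. Terms close in meaning to those of the rule were in part outside the set, which held 3.2% of the annotated sequences. The general term response to stress was listed for 118 sequences and hypoxia for 10, with 0 members in each. Hyperosmotic response was listed for 12 sequences, of which 3 were members, and heat acclimation for 5, of which 2 were members. All 3 sequences with response to lead ion were members.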

How the data were processed

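The mRNA of 7 cultures, purified from total RNA with oligo(dT) beads, was sequenced as paired-end reads. The clean reads were assembled by the authors using Trinity, and genes were predicted by GetORF. GO terms came from GoPipe, based on Blastp hits with an E-value below 1e-05, and were deposited for the pooled assembly as text in 4 columns (sequence, GO identifier, term name and domain), with 0 columns of values per sample.

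Sequences were selected and counted by phrases in the term names, without regard to capitals. The 8 classes and 26 role and location lists were also phrases in term names, applied to terms other than those of the rule, and UV was matched in capitals only. The kinase and phosphatase list also took nucleoside-triphosphatase activity. The carbon metabolism list also took response to sucrose stimulus (4 members) and alanine-glyoxylate transaminase activity (2 members). The members and lists were chosen with earlier results of these data known. The terms and sequences to be named were the stress terms with at least 5 members and members in most classes or with most terms. They also included the 10 most frequent other terms of each domain and at most 5 terms per list. Not all of these terms are described above. Other terms and sequences, with rarer stress terms among them, were named after the data had been seen, to show the functions within a class. No test was made, since the table holds no replicate. Depth per library is not given by the table. Identifiers matched 0 of 30548 genes of a reference table (assembly ASM3014472v1), so gene names and sequences were not used here. The counting was tested on simulated data. Python 3.11.15, SciPy 1.17.1 and Matplotlib 3.10.9 were used.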

Additional observations from a re-analysis of the deposited data

How the results depend on the processing

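Other ways of counting (a count per Trinity component, with the oxidative stress identifiers kept, with terms that begin with response to, with terms on 2 or more sequences, without sequences of 20 or more terms, and medians without the stress terms) gave 119 values. All 119 stayed within 1.5 times the count or within the 95% Wilson interval of the share, and the set ranged from 203 components to 223 sequences. These alternatives left most members in place, so the values had little room to move. Of 39 values under alternatives chosen after seeing the data, 14 moved further. Counted by distinct term sets, the set fell to 123, the cadmium class to 56, the heat class to 26, the osmotic class to 5 and the members in 2 or more classes to 18. Without the cadmium phrase the set held 137 sequences, and the shares became 27% for chaperone, 13.9% for protein synthesis, 4.38% for carbon metabolism, 5.11% for redox, 16.1% for mitochondrion, 23.4% for cytoplasm and 13.1% for cell wall or apoplast terms. Without the location term cytosolic ribosome the protein synthesis share was 14.2%. A wider phrase list with hyperosmotic, salinity, freezing and other metal ion terms gave 242 sequences. No paired analysis was possible because the table holds no values per library. The annotation cannot show whether a member was expressed in a given library, nor how much.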

Other observations

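The 5 sequences left out for an oxidative stress term were among 32 sequences with such a term in the table. They were glutathione peroxidase comp384929_c0_seq1_2 with cadmium and salt terms, peptidyl-prolyl cis-trans isomerase comp1385131_c0_seq1_2 and fumarate hydratase comp57240_c0_seq2_34 with the salt term, transporter comp1122342_c0_seq1_2 with the heat term and protein disulfide oxidoreductase comp1006802_c0_seq1_4 with the osmotic term.

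Among the 218 members, 77 of the 123 distinct term sets occurred once, and the other 46 were shared by 141 members. Component numbers above 100000 were found for 86 members (39.4%) and for 50.7% of the other sequences, and within the set this share ran from 14.3% in the wounding class to 58.3% in the starvation class. Terms of the animal body list were found in 9 members (4.13%) and in 4.64% of the other sequences. Its phrase embryo also took plant terms, so these shares are not shares of animal annotation. Embryonic development ending in seed dormancy was listed for 4 members, post-embryonic root development for 3 and nematode larval development for 2.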
